A study of Mus musculus with 6 samples.

Results

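The 32 genes described here are targets of the tumor suppressor p53, chosen by name from a list of well-known targets, with earlier results of these data known. They were read from the gene symbols of the deposited count files. All 32 were found among 55536 annotated genes, and all 32 had enough counts to be tested, as did 15696 genes in all. They were measured by RNA sequencing of total RNA from 6 B16 tumors, B16 being an established mouse melanoma line from the C57BL/6 strain. In the control group, 3 tumors came from B16 cells carrying a vector control, and in the other group 3 tumors came from B16 cells labelled ATM KO, a knockout of the kinase gene Atm. In both groups about 100000 cells were placed under the skin of C57BL/6J mice, and the tumors were taken on day 13. The labels do not say how Atm was disrupted, whether the knockout line is 1 clone, or whether each tumor had its own mouse, so p-values cover only the variation among 6 tumors, and the knockout and its cell line cannot be told apart. The host mice carry their own Atm, and each library holds RNA of tumor and host cells together.

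p53 is a transcription factor that is held low by the proteins Mdm2 and Mdm4. When DNA breaks, ATM and its downstream kinases modify p53 and its inhibitors, p53 accumulates, and it switches on genes that stop the cell cycle, start apoptosis, repair DNA or limit oxidative damage. Several of its targets, Cdkn1a and Ccng1 among them, are also transcribed without p53, so their levels are not a direct reading of p53 activity. The comparison asks how these targets differ between tumors of ATM knockout and control cells.

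Libraries held 22101124 to 29037715 counts on genes. Values are counts per 1000000 (CPM) after TMM scaling, a correction for library composition, and are given for tumors 1, 2 and 3 of a group in that order. Differences are log2 fold changes, ATM knockout minus vector control, ± SE. They were tested with edgeR's quasi-likelihood test and Benjamini-Hochberg adjusted over all 15696 genes, with a threshold of 0.05. The SE was derived from that test, as the absolute log2 fold change over the square root of its F statistic. Vector control tumor 1 stood apart in its host transcripts. Its 6 fibroblast markers summed to 275 CPM, against 1320 to 2990 CPM in the other 5 tumors, and its 10 leukocyte markers to 385 CPM, against 672 to 993 CPM. Its 7 melanocyte markers summed to 27200 CPM, against 18800 to 21000 CPM in the others. All 7 melanocyte markers were present in every tumor, while the keratinocyte markers Krt5, Krt14 and Krt1 had 0 counts in every tumor. The 9 skeletal muscle markers summed to 24.1, 63.6 and 7290 CPM in control tumors and to 2550, 6890 and 592 CPM in knockout tumors. The 5 endothelial markers summed to 146, 156 and 255 CPM in control and to 132, 144 and 118 CPM in knockout tumors, without overlap. The T cell markers Cd3e (0.92 ± 0.30, edgeR adjusted p = 0.136) and Cd8a (1.01 ± 0.27, edgeR adjusted p = 0.0883) were above every control in every knockout tumor. Of the 9 tested leukocyte markers, 4 were positive and 5 negative, with a median of -0.032. Of the melanocyte markers Dct fell (-0.75 ± 0.15, edgeR adjusted p = 0.0433), while 4 of the 7 were positive and 3 negative, with a median of 0.020. The 4 adipocyte and 5 erythroid markers had medians of -2.89 and -1.52, with none called, and their sums overlapped between groups. Adipocyte markers summed to 0.0885, 228 and 123 CPM in control and to 3.98, 2 and 36.6 CPM in knockout tumors. Erythroid markers summed to 576, 61.9 and 733 CPM in control and to 20.1, 8.88 and 454 CPM in knockout tumors. The part of these cells in the results was not tested. In such bulk samples, fewer cells of a type and less RNA per cell cannot be told apart. Atm itself was at 110.90, 107.30 and 95.5 CPM in control and 97.2, 132.20 and 107.20 CPM in knockout tumors, a difference of 0.10 ± 0.13 (edgeR adjusted p = 0.707). A count over the whole gene does not check the knockout, since the disrupted part is not stated.

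Across the 32 targets, Ephx1 and Zmat3 rose in ATM knockout tumors, Gdf15 fell, and 29 did not pass the test. With DESeq2, 7 targets passed as higher and 1 as lower, and with limma-voom 1 as higher, where over all genes DESeq2 called 13.2% and limma-voom 4.38%. In edgeR, 4.96% of all genes were called, 2.21% higher and 2.75% lower, against 6.25% and 3.12% of the targets. Most differences were small and positive. A positive log2 fold change was found for 26 of the 32 targets (81.2%) and for 49.1% of all tested genes, and the median was 0.21 for the targets and -0.0058 for all tested genes. For 15 targets (46.9%) every knockout tumor lay above every control tumor, and for 2 (6.25%) every knockout tumor lay below, where over all tested genes the shares were 14.3% and 15.4%. With an unadjusted p under 0.05, 11 targets were higher and 2 lower (34.4% and 6.25%), against 10.6% and 12.3% of all tested genes. Without vector control tumor 1, positive fold changes numbered 22, and 17 targets lay wholly above and 4 wholly below the controls, while over all tested genes 49% were positive, 22.1% lay wholly above and 22.3% wholly below. The 32 genes lie on 17 chromosomes. They were chosen with earlier results of these data known, so these shares do not come from a set chosen independently of the data.

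**Figure D1:**
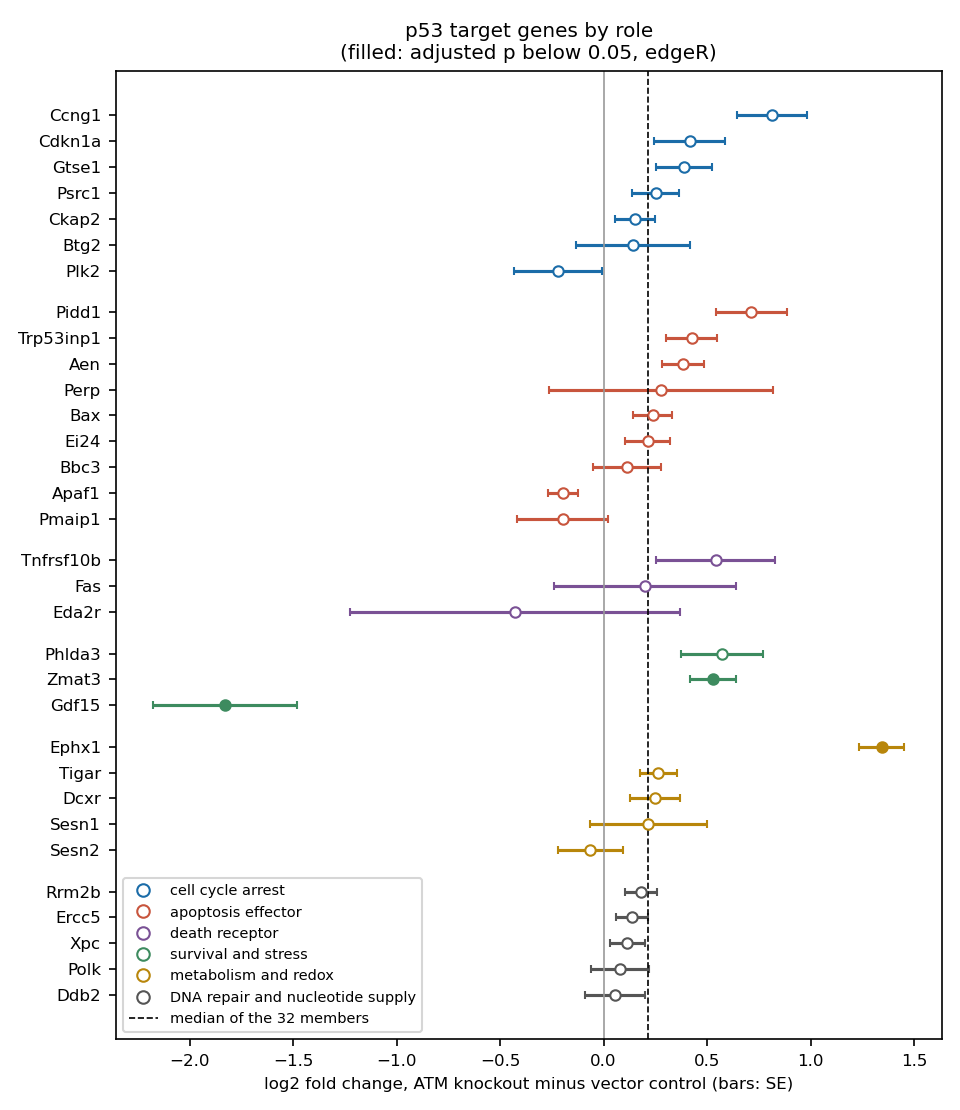
Log2 fold change (ATM knockout minus vector control, x axis) of the 32 p53 target genes, grouped by role, with SE as bars and filled points where the edgeR adjusted p was below 0.05. Of the 32 points 26 lie above 0, the dashed line marks the median of the 32, 0.21, and Gdf15 at -1.83 and Ephx1 at 1.34 are the extremes. The group labelled cell cycle arrest also holds the mitotic genes Gtse1, Psrc1 and Ckap2.

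The members' promoters were searched for the sequence p53 binds, and the matches are shown because they tell which of these targets carry a p53-like sequence close to an annotated start. p53 binds as a tetramer to a pair of 10-base half-sites. RefSeq promoters of build GRCm38.p6, 250 bases before to 50 bases after each annotated start, were given for 24 of the 32 genes (Zmat3, Pmaip1, Trp53inp1, Xpc, Tnfrsf10b, Rrm2b, Ddb2 and Perp were not among them). A match was a pair of p53 half-site consensus sequences, C at the fourth and G at the seventh base of each held fixed, at most 2 mismatches over the pair and a spacer of 0 to 13 bases. The consensus is its own reverse complement, so both strands are covered. Such a pair was found in 6 of the 24 genes (25%) and in 4.71% of all 27025 genes with a promoter of this length. Each is written 5′ to 3′ on the gene's strand, with capitals for the half-sites of the pair with the fewest mismatches and of any further pair in the window with at most 1 mismatch.
Ccng1: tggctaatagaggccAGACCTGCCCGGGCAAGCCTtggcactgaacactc
Cdkn1a: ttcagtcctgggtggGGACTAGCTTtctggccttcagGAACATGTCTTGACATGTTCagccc
Gtse1: ccggGAGCAAGTTGGGGCTTGCCTctga
Bax: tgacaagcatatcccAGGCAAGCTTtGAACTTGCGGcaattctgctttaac
Ckap2: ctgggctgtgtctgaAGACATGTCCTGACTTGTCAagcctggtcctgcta
Sesn1: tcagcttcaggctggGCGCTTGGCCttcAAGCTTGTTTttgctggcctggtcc
The Ccng1 pair, with 1 mismatch and no spacer, lies 195 to 176 bases before the start (chr11:40755447-40755496, minus strand). Cdkn1a has a pair without mismatch at 73 to 42 bases before an annotated start, with 12 bases between its half-sites (chr17:29090891-29090952, plus strand). Its second half-site also pairs with the half-site directly after it, with 1 mismatch and no spacer. That pair lies 51 to 32 bases before the same start. The printed stretch lies before the outer edge of the gene's span (29090976 to 29100727), and how much Cdkn1a RNA comes from this start was not tested. In Gtse1 the pair, with 1 mismatch, begins at the last base before a start and runs 19 bases past it (chr15:85859941-85859968, plus strand). Its second half-site also begins a further pair with 1 mismatch, 10 to 30 bases past the start, which ends beyond the printed stretch. Bax (chr7:45467064-45467114, minus strand), Ckap2 (chr8:22185988-22186037, minus strand) and Sesn1 (chr10:41887238-41887290, plus strand) each have 2 mismatches. A match here is a run of letters, not a shown site of binding, and p53 sites farther out or elsewhere inside the genes were not searched. An annotated start need not be the outermost of its gene. The Sesn1 span begins at 41809935 and the Gtse1 span at 85859745, so their printed stretches lie inside the genes. The 6 genes had log2 fold changes of 0.81, 0.42, 0.39, 0.24, 0.15 and 0.22 in the order above, and none passed the edgeR test. Ephx1 and Gdf15, which did pass, had no such pair in these windows.

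Among the 7 genes grouped under cell cycle arrest, which include the mitotic genes Gtse1, Psrc1 and Ckap2, none passed in edgeR. With an unadjusted p under 0.05, 3 were higher (Cdkn1a, Ccng1 and Gtse1), against 10.6% of all tested genes. DESeq2 called 1 higher and limma-voom none, against 13.2% and 4.38% of all genes in either direction. Ccng1 encodes cyclin G1, a p53-induced partner of protein phosphatase 2A that feeds back on Mdm2 (chromosome 11, 40748552 to 40755311, GRCm38). It was at 113.60, 111.50 and 157.0 CPM in control tumors and 220.60, 256.90 and 193.40 CPM in knockout tumors. Every knockout tumor was above every control tumor, and vector control tumor 3 was the highest control. Its means were 127.40 ± 25.7 and 223.60 ± 31.9 CPM (SD, n = 3), a log2 fold change of 0.81 ± 0.17 that missed the threshold narrowly in edgeR (adjusted p = 0.05005) and passed in DESeq2 (adjusted p = 0.000184). Cdkn1a encodes p21, the cyclin-dependent kinase inhibitor through which p53 halts the cycle before replication. Cdkn1a was at 164.20, 152.10 and 138.60 CPM in control and 174.10, 174.80 and 257.90 CPM in knockout tumors. The groups did not overlap, but knockout tumors 1 and 2 lay close above the controls and knockout tumor 3 lay far above. Cdkn1a means were 151.60 ± 12.8 and 202.30 ± 48.2 CPM (SD, n = 3), with a log2 fold change of 0.42 ± 0.17 (edgeR adjusted p = 0.213), which was 0.21 without ATM knockout tumor 3. The 227 tested genes starting within 5 Mb of Cdkn1a on chromosome 17 had a median of 0.25.

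Gtse1, Psrc1 and Ckap2 encode proteins of the mitotic spindle and of the cycle after replication, and Gtse1 also restrains p53. For Gtse1 the control tumors were at 34.5, 40.2 and 37.5 CPM and the knockout tumors at 52.6, 54.4 and 39.8 CPM. Knockout tumor 3 fell within the control range and the other knockout tumors above it (37.4 ± 2.89 and 48.9 ± 7.97 CPM, SD, n = 3; log2 fold change 0.39 ± 0.14, edgeR adjusted p = 0.152). Psrc1 was nearly the same in the 3 control tumors, at 51.6, 51.9 and 51.5 CPM, and was at 61.1, 70.98 and 52.5 CPM in the knockout tumors. These groups did not overlap, with knockout tumor 3 just above the controls (51.7 ± 0.231 and 61.5 ± 9.27 CPM, SD, n = 3; 0.25 ± 0.11, edgeR adjusted p = 0.247), and without knockout tumor 2 the Psrc1 difference was 0.14. Ckap2 (0.15 ± 0.0976), the antiproliferative gene Btg2 (0.14 ± 0.28) and the polo-like kinase gene Plk2 (-0.22 ± 0.21) overlapped between groups. The Plk2 difference was -0.063 without vector control tumor 2 and -0.39 without vector control tumor 1. Of 26 other mitotic genes none passed in edgeR, and their median was 0.018. With an unadjusted p under 0.05, 6 were higher and 3 lower, against 10.6% and 12.3% of all tested genes. DESeq2 called 2 higher and limma-voom none, against 13.2% and 4.38% of all genes in either direction. The smallest p-values among them belonged to the kinase gene Aurka (0.56), Nusap1 (0.23), cyclin B2 gene Ccnb2 (-0.29) and the centromeric histone gene Cenpa (-0.23).

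Among 9 apoptosis genes none passed in edgeR. With an unadjusted p under 0.05, 4 were higher and 1 lower, against 10.6% and 12.3% of all tested genes. DESeq2 called 3 higher (Pidd1, Aen and Trp53inp1) and limma-voom none, against 13.2% and 4.38% of all genes in either direction. Pidd1 encodes a scaffold that joins caspase 2 to DNA damage and to extra centrosomes. Its level was 11.2, 11.3 and 12.8 CPM in control and 18.9, 23.6 and 15.4 CPM in knockout tumors, with no overlap and with knockout tumor 2 the highest. The Pidd1 means were 11.8 ± 0.858 and 19.3 ± 4.15 CPM (SD, n = 3) and the log2 fold change 0.71 ± 0.17 (edgeR adjusted p = 0.0676). It lies near the end of chromosome 7, where the 98 tested genes starting within 5 Mb had a median of 0.35, 19 of them below 0. Trp53inp1, a stress protein that promotes p53 phosphorylation and autophagy, was at 52.7, 52.5 and 49.5 CPM in control and 75.5, 75.5 and 56.7 CPM in knockout tumors. Knockout tumors 1 and 2 were alike and well above the controls, and knockout tumor 3 was nearer to them (51.6 ± 1.79 and 69.2 ± 10.9 CPM, SD, n = 3; 0.42 ± 0.12, edgeR adjusted p = 0.101). Aen, a nuclease of apoptotic cells, was at 25.9, 28.2 and 26.8 CPM in control and 35.8, 38.7 and 31.04 CPM in knockout tumors. Again the groups did not overlap and knockout tumor 3 was the lowest of its group (26.97 ± 1.13 and 35.2 ± 3.89 CPM, SD, n = 3; 0.38 ± 0.10, edgeR adjusted p = 0.0837).

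The genes that open the mitochondrial outer membrane, and the scaffold that acts after it, did not pass. Bax, the pore-forming effector, was at 43.6, 49.5 and 50.8 CPM in control and 60.7, 57.5 and 51.5 CPM in knockout tumors. The lowest knockout tumor, tumor 3, stood just above the highest control tumor (47.97 ± 3.80 and 56.5 ± 4.70 CPM, SD, n = 3; 0.24 ± 0.0934, edgeR adjusted p = 0.196). Bbc3 encodes Puma, a BH3-only activator of Bax, and was at 5.66, 7.45 and 7.53 CPM in control and 7.46, 7.48 and 7.39 CPM in knockout tumors. Vector control tumor 1 was low and the other 5 tumors were nearly level (6.88 ± 1.06 and 7.45 ± 0.0477 CPM, SD, n = 3; 0.11 ± 0.16, edgeR adjusted p = 0.753). Without vector control tumor 1 the Bbc3 difference was -0.0076. Pmaip1 encodes Noxa, another BH3-only protein, and was at 5.53, 5.49 and 6.38 CPM in control and 5.62, 3.69 and 5.85 CPM in knockout tumors. Knockout tumor 2 alone was below the control range (5.80 ± 0.501 and 5.05 ± 1.19 CPM, SD, n = 3; -0.20 ± 0.22, edgeR adjusted p = 0.666), and without it the Pmaip1 difference was -0.018. Apaf1, the scaffold of the apoptosome that activates caspase 9, was at 98.4, 104.10 and 97.4 CPM in control and 80.7, 89.9 and 91.3 CPM in knockout tumors. Each knockout tumor was below each control tumor (99.99 ± 3.60 and 87.3 ± 5.75 CPM, SD, n = 3; -0.20 ± 0.0732, edgeR adjusted p = 0.176). Ei24, a protein of the endoplasmic reticulum, overlapped between groups at 84.1 ± 2.79 and 97.5 ± 13.2 CPM (SD, n = 3), and the desmosomal protein gene Perp had 6 to 26 counts per library. Among 18 other tested genes of the apoptosis machinery none passed in edgeR, and their median was 0.039. With an unadjusted p under 0.05, 5 were higher and 1 lower, against 10.6% and 12.3% of all tested genes. DESeq2 called 3 higher and limma-voom none, against 13.2% and 4.38% of all genes in either direction. The smallest p-values were those of Bak1 (0.35), Bad (0.35), Fadd (0.48) and Hrk (-2.90, with means of 0.674 ± 0.263 and 0.0853 ± 0.114 CPM, SD, n = 3).

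None of the 3 death receptor genes passed in edgeR, DESeq2 or limma-voom or had an unadjusted p below 0.05. Fas, the receptor through which Fas ligand of T cells kills, was at 1.06, 3.48 and 3.23 CPM in control and 2.75, 2.72 and 3.46 CPM in knockout tumors. Vector control tumor 1 was the low one and the other 5 tumors overlapped (2.59 ± 1.33 and 2.98 ± 0.417 CPM, SD, n = 3; 0.20 ± 0.44, edgeR adjusted p = 0.851), and without it the difference was -0.17. Tnfrsf10b, the mouse receptor for TRAIL, was at 3.36, 6.95 and 6.87 CPM in control and 8.57, 8.34 and 8.11 CPM in knockout tumors. All 3 knockout tumors were alike and above the controls, of which tumor 1 was again low (5.73 ± 2.05 and 8.34 ± 0.231 CPM, SD, n = 3; 0.54 ± 0.29, edgeR adjusted p = 0.322). Without vector control tumor 1 the difference was 0.27. The gene lies on chromosome 14 among 67 tested neighbors with a median of -0.42, 57 of them below 0. All 532 other tested genes of chromosome 14 had a median of -0.35. Eda2r, the receptor of ectodysplasin A2, varied most, at 3.05, 5.44 and 17.1 CPM in control and 6.72, 10.2 and 2.19 CPM in knockout tumors. Its 2 highest levels were in vector control tumor 3 and ATM knockout tumor 2, the 2 tumors with the highest summed muscle markers (7290 and 6890 CPM), and the part of muscle tissue in this gene's level was not tested.

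Zmat3 and Gdf15, from the group of survival and stress signals, moved in opposite directions. Zmat3 encodes an RNA-binding zinc finger protein that regulates splicing and is a tumor suppressor arm of p53 (chromosome 3, 32334792 to 32366014, GRCm38). It was at 65.8, 74.2 and 64.4 CPM in control tumors and 100.60, 109.10 and 84.96 CPM in knockout tumors. All knockout tumors were above all control tumors, with knockout tumor 3 the closest. Zmat3 rose 1.44-fold, with means of 68.1 ± 5.32 and 98.2 ± 12.2 CPM (SD, n = 3) and a log2 fold change of 0.53 ± 0.11 (edgeR adjusted p = 0.0493). The call was close to the threshold. It ended with limma-voom (adjusted p = 0.0577), and in edgeR with non-robust dispersions (adjusted p = 0.0513) or the replicate number as a block (adjusted p = 0.12). It also ended without any 1 tumor other than ATM knockout tumor 3 (edgeR adjusted p 0.0611 to 0.188), while the fold change stayed between 0.45 and 0.63. The 48 tested genes within 5 Mb of it on chromosome 3 had a median of -0.17, opposite in sign.

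Gdf15 encodes a secreted cytokine of the TGF-beta family that is induced by p53 and by the integrated stress response (chromosome 8, 70629393 to 70632456, GRCm38). Its level was 5.53, 11.5 and 5.38 CPM in control and 1.84, 2.29 and 2.16 CPM in knockout tumors, from 125, 252 and 130 counts and 45, 64 and 63 counts. The knockout tumors were alike and below every control, and vector control tumor 2 stood above the other control tumors. Gdf15 fell to 0.28 of the control mean (7.48 ± 3.50 and 2.10 ± 0.228 CPM, SD, n = 3; log2 fold change -1.83 ± 0.35, edgeR adjusted p = 0.0411). The difference was -1.35 without vector control tumor 2 (adjusted p = 0.0984), and the call held only without vector control tumor 1 among the single-tumor omissions. It also ended with limma-voom (adjusted p = 0.0577). The gene lies on chromosome 8, where the 128 tested genes within 5 Mb had a median of -0.26 and 107 of them were below 0. All 825 other tested genes of chromosome 8 also had a median of -0.26. Phlda3, a lipid-binding protein that competes with Akt at the membrane, was at 64.04, 40.01 and 40.3 CPM in control and 74.9, 65.5 and 74.2 CPM in knockout tumors. The groups did not overlap because vector control tumor 1, the highest control, was just below the lowest knockout tumor (48.1 ± 13.8 and 71.5 ± 5.27 CPM, SD, n = 3; 0.57 ± 0.20, edgeR adjusted p = 0.155). Without vector control tumor 1 Phlda3 passed (0.84, edgeR adjusted p = 0.00942), as it did in DESeq2 with all tumors (adjusted p = 0.0406).

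**Figure D2:**
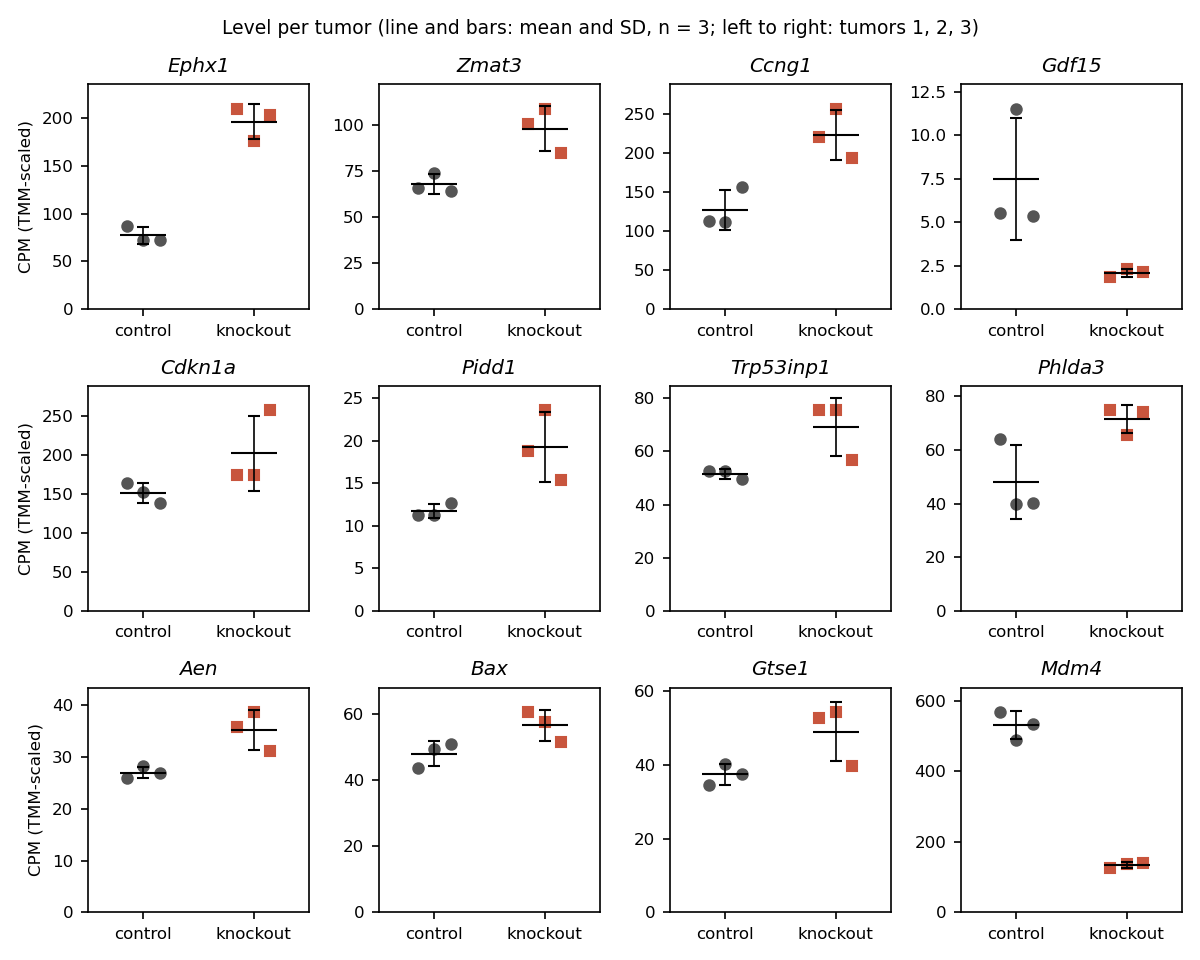
TMM-scaled CPM (y axis, from 0) of 11 p53 target genes and of the p53 inhibitor gene Mdm4 in each of 3 vector control tumors (grey circles) and 3 ATM knockout tumors (red squares), with mean and SD (n = 3) as line and bars. Knockout tumor 3 is the lowest knockout tumor for Ccng1, Zmat3, Pidd1, Trp53inp1, Aen, Bax and Gtse1 and the highest for Cdkn1a.

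Ephx1 showed the largest rise of the 32. It encodes microsomal epoxide hydrolase, an enzyme that opens reactive epoxides (chromosome 1, 180976210 to 181020904, GRCm38). Ephx1 was at 87.0, 72.4 and 72.2 CPM in control and 209.40, 175.60 and 202.80 CPM in knockout tumors. The gap between the groups was wider than either group's range. Ephx1 rose 2.54-fold (77.2 ± 8.51 and 196.0 ± 17.9 CPM, SD, n = 3; log2 fold change 1.34 ± 0.11, edgeR adjusted p = 0.00784). The fold change lay between 1.29 and 1.44 when any 1 tumor was left out, and among these omissions the call ended only without ATM knockout tumor 1 (adjusted p = 0.0763). In that fit no gene was called higher and 2 were called lower over all genes. DESeq2 and limma-voom also called Ephx1 (adjusted p = 6.71e-26 and 0.00828). Its 63 tested neighbors on chromosome 1 had a median of -0.0038.

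The other 4 genes of metabolism and redox balance did not pass in edgeR, DESeq2 or limma-voom, and Tigar had an unadjusted p under 0.05. Tigar, a phosphatase that turns glucose toward the pentose phosphate pathway, was at 76.8, 74.9 and 63.2 CPM in control and 89.9, 85.7 and 82.5 CPM in knockout tumors. These groups did not overlap (71.6 ± 7.33 and 86.03 ± 3.69 CPM, SD, n = 3; 0.26 ± 0.0904, edgeR adjusted p = 0.149). Dcxr, a reductase of sugars and carbonyls, was at 9.33, 8.55 and 9.15 and 11.6, 10.3 and 10.2 CPM, likewise without overlap (9.01 ± 0.409 and 10.7 ± 0.774 CPM, SD, n = 3; 0.25 ± 0.12, edgeR adjusted p = 0.280). Sesn1 and Sesn2 encode sestrins, which restrain mTORC1 when amino acids are short. Sesn1 was at 11.9, 20.3 and 26.7 CPM in control and 22.1, 25.1 and 21.4 CPM in knockout tumors (0.22 ± 0.28), and Sesn2 differed by -0.064 ± 0.16. In both, vector control tumor 1 was the lowest of the 6 tumors, and without it the Sesn1 difference was -0.041.

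The DNA repair genes had small differences. None of the 5 passed in edgeR, DESeq2 or limma-voom, none had an unadjusted p below 0.05, and their log2 fold changes ran from 0.057 to 0.18. Rrm2b encodes the p53-induced subunit of ribonucleotide reductase, which supplies deoxynucleotides for repair. It was at 27.9, 25.8 and 25.2 CPM in control and 29.2, 30.5 and 29.7 CPM in knockout tumors, a small difference without overlap (26.3 ± 1.41 and 29.8 ± 0.640 CPM, SD, n = 3; 0.18 ± 0.0763, edgeR adjusted p = 0.220). Ercc5, the nuclease that cuts on the 3′ side of a DNA lesion, was at 43.6, 43.7 and 38.5 and 44.4, 48.1 and 45.8 CPM, also without overlap (41.9 ± 2.98 and 46.1 ± 1.87 CPM, SD, n = 3; 0.14 ± 0.0791, edgeR adjusted p = 0.368). Ddb2, which finds ultraviolet lesions, was at 14.1, 11.7 and 11.2 CPM in control and 14.6, 11.9 and 11.9 CPM in knockout tumors, with the highest tumor of each group nearly equal (12.3 ± 1.55 and 12.8 ± 1.53 CPM, SD, n = 3; 0.057 ± 0.14, edgeR adjusted p = 0.874). Of the Ddb2 exon length 23.8% overlaps exons of Acp2 on the opposite strand, and how the counting treated strand is not known here, so its count is less certain. Smaller overlaps limit other members. On the same strand Bax shares 12.2% of its exon length with Gm45808 and Ephx1 3.69% with Gm36961. Cdkn1a, Ei24, Tigar and Rrm2b share 3.34% to 8.04% with genes on the opposite strand. Xpc, the lesion sensor of global repair (0.11 ± 0.0840), and the translesion polymerase gene Polk (0.080 ± 0.14) overlapped between groups.

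The p53 inhibitor Mdm4 fell in all knockout tumors, while Mdm2 and Trp53 did not pass the test. Mdm4 was at 570.0, 490.50 and 536.10 CPM in control and 126.50, 137.60 and 141.0 CPM in knockout tumors (532.20 ± 39.9 and 135.0 ± 7.62 CPM, SD, n = 3; -1.98 ± 0.0878, edgeR adjusted p = 0.00290). Mdm2, the other main inhibitor and itself a p53 target, was at 107.30, 103.70 and 92.6 and 95.8, 99.8 and 121.0 CPM (0.060 ± 0.11, edgeR adjusted p = 0.818), and Trp53, which encodes p53, at 70.3, 80.7 and 82.4 and 75.3, 82.7 and 73.3 CPM (-0.013 ± 0.0871, edgeR adjusted p = 0.955). Of 21 tested genes upstream of p53 or regulating it, 2 fell and none rose in edgeR, Mdm4 and the kinase gene Atr (-0.45 ± 0.0874, edgeR adjusted p = 0.0424). The 21 had a median of -0.033, and edgeR called 2.75% of all tested genes lower. At an unadjusted p under 0.05 the 21 held 2 higher and 2 lower genes, where the shares of all tested genes were 10.6% and 12.3%. By DESeq2 1 of the 21 rose and 2 fell, and by limma-voom 2 fell. These tools passed 13.2% and 4.38% of all genes, counting both directions. Of 19 further p53 targets outside the 32, 1 rose and none fell, with a median of 0.080. It was Dglucy, D-glutamate cyclase, from 8.49, 8.05 and 10.4 CPM to 16.2, 18.7 and 17.01 CPM (0.95 ± 0.14, edgeR adjusted p = 0.0253). With an unadjusted p under 0.05, 4 of the 19 were higher and 2 lower, against the same 10.6% and 12.3% of all tested genes. With DESeq2, 3 passed as higher and 1 as lower, and with limma-voom 1 as higher, where over all genes 13.2% and 4.38% passed. Gadd45a (0.0024) and Rps27l (-0.096), responses to DNA damage that were chosen after their values were seen, had differences near 0. The 19 ran from -0.62 to 1.52, with 12 positive (63.2%, against 49.1% of all tested genes) and 7 negative. Of them 5 lay wholly above the controls and 1 wholly below, against 14.3% and 15.4% of all tested genes.

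**Figure D3:**
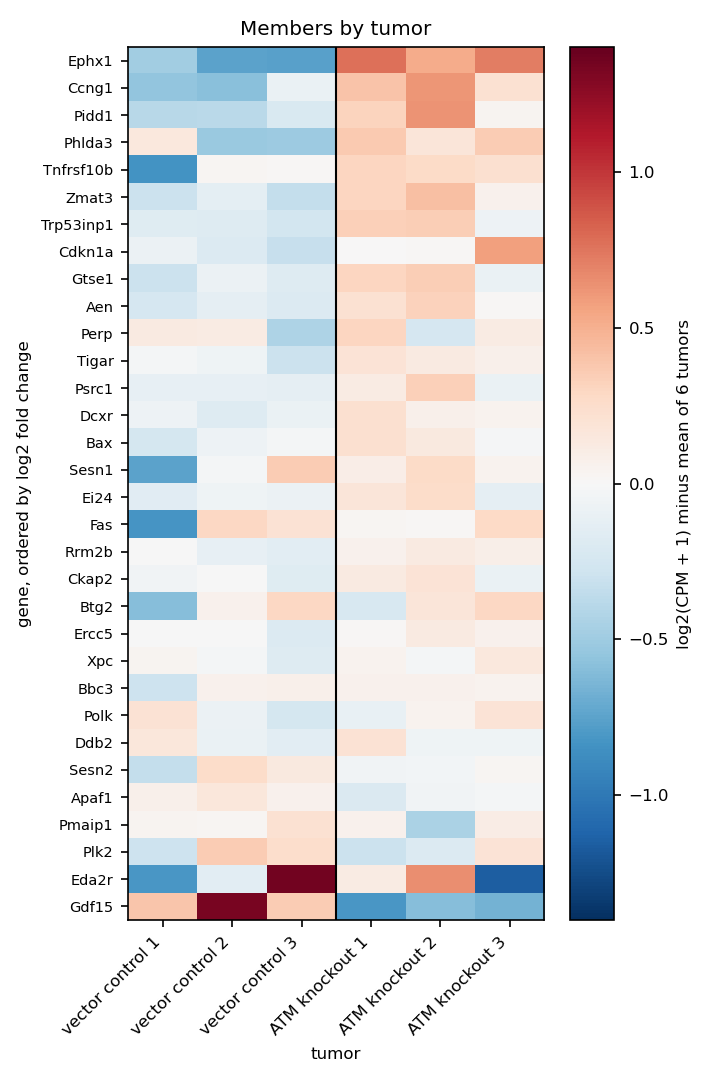
Level of each p53 target (rows, ordered by log2 fold change) in each tumor (columns), as log2(CPM + 1) minus the gene's mean over the 6 tumors, red above and blue below that mean. Rows from Ephx1 to Dcxr, Perp apart, are mostly blue in control and red or pale in knockout tumors, while Sesn1, Fas and Btg2 are bluest in vector control tumor 1.

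The targets did not follow 1 order among the tumors of a group. Within the knockout group, tumor 3 was the lowest for 17 of the 32 targets (38.3% of all tested genes) and for 10 of the 15 that lay wholly above the controls, whereas Cdkn1a was highest there. Among the control tumors, tumor 1 was lowest for 13 targets and tumor 3 for 15 (37.2% and 38.8% of all tested genes). The mean of log2(CPM + 1) over the 32 targets was 4.60, 4.77 and 4.76 for control tumors and 4.92, 4.95 and 4.85 for knockout tumors, so the groups did not overlap. Summed muscle markers were also lowest in knockout tumor 3 (592 CPM) among the knockout tumors, and their part in that order was not tested. Vector control tumor 3, with 7290 CPM of muscle markers, had the lowest level of the 6 tumors for Zmat3, Trp53inp1 and Cdkn1a and the highest control level for Ccng1 and Pidd1. Compared per kilobase of exon, Cdkn1a (42.7), Ephx1 (39.6), Ccng1 (36.3), Phlda3 (30.9) and Bax (30.4) were the 5 highest of the 32 in control tumors, in CPM per kilobase. In knockout tumors the order was Ephx1 (100.50), Ccng1 (63.7), Cdkn1a (56.9), Phlda3 (45.9) and Bax (35.9). Perp was the lowest in both groups (0.327 and 0.396 CPM per kilobase).

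**Figure D4:**
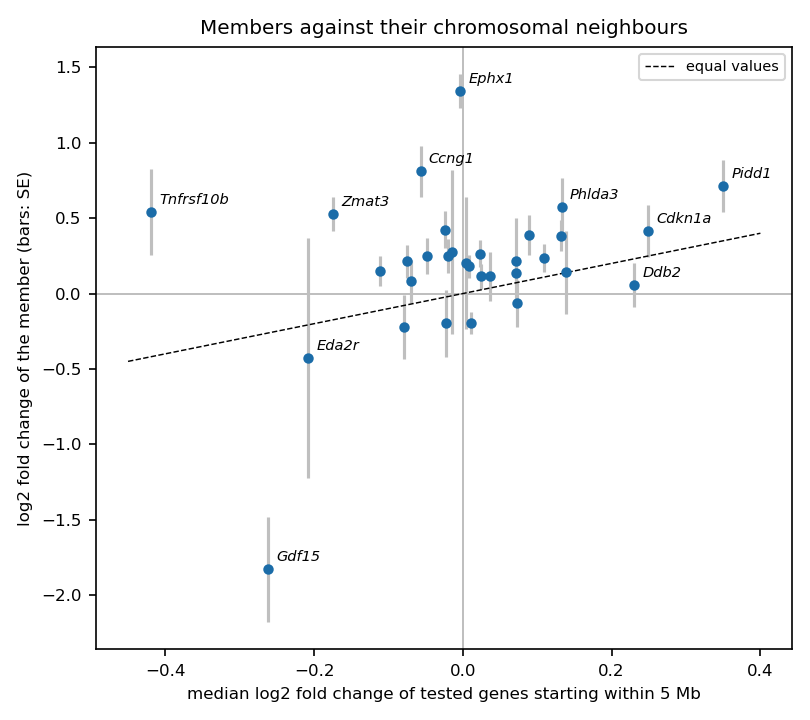
Log2 fold change of each p53 target (y axis, SE as bars) against the median log2 fold change of the other tested genes starting within 5 Mb of it (x axis), with a dashed line of equal values. Ephx1, Ccng1, Zmat3 and Tnfrsf10b are above 0 among neighbors with a median below 0, and Gdf15 is lower than its neighbors at -0.26.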

How the data were processed

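The authors deposited raw counts per gene, 1 file per tumor. Trim Galore, cutadapt, STAR, SAMtools and HTSeq and the builds GRCm38 and mm10 are named without roles or order, per the submitters' processing notes. All 55536 gene identifiers matched GENCODE M21, which gave coordinates and exon lengths. Rows naming no gene were left out (no feature 16.7% to 18.2%, ambiguous 1.21% to 1.38% of listed reads). Counts were fitted in R 4.3.3 with edgeR 4.0.16 (filterByExpr, minimum count 10, minimum total 15, TMM, robust quasi-likelihood test, genotype as the only term), tested on simulated data, and with DESeq2 1.42.0 and limma 3.58.1 (voom) as alternatives. The common biological coefficient of variation was 27.6%. All library pairs differed by more than counting noise (chi-square over its degrees of freedom, 21.1 to 88).

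The 32 members and all lists were chosen with earlier results of these data known. Every member is accounted for. Six-tumor values with statistics go to members that passed, to members whose groups do not overlap and to 8 fixed members, and in other lists genes are named where called, or as the 4 of smallest p, with Atm, Trp53, Mdm2, Mdm4, Gadd45a and Rps27l besides, of which Gadd45a and Rps27l were chosen after their values were seen. Lists are described by counts and medians, with no set test. The other genes of nucleotide excision repair are not reported here. Counts of positive and of non-overlapping members under other settings were added after seeing the data.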

Additional observations from a re-analysis of the deposited data

How the results depend on the processing

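With 2 targets called higher and 1 lower in the edgeR test, limma-voom called 1 and 0 and DESeq2 7 and 1. Over all genes DESeq2 called 13.2%, limma-voom 4.38%, and edgeR 347 higher and 431 lower of 15696. Non-robust dispersions left 1 target higher and 1 lower, against 340 and 417 of 15696 genes. No filter on low counts gave 5 higher and 1 lower, against 456 and 448 of 30216 genes. A threshold of 0.01 left 1 higher and 0 lower, and one of 0.10 gave 5 higher and 1 lower. Calls over all genes at these thresholds were not counted. Leaving out 1 tumor gave 0 to 3 targets called higher and 0 to 1 lower, with 0 higher and 2 lower over all genes without ATM knockout tumor 1 and 587 higher and 622 lower without vector control tumor 1. Targets with a positive fold change numbered 22 to 27 (47.5% to 55.9% of all tested genes), and targets wholly above the controls 13 to 18 (9.56% to 22.1% of all tested genes), over all settings run. The replicate numbers did not pair the tumors (correlations of same-numbered deviations 0.044, -0.27 and -0.42). The fit with the replicate number as a block called 0 targets in either direction, Ephx1 included (adjusted p = 0.102), and 0 genes overall. Over single-tumor omissions the difference changed sign for Btg2 (-0.090 to 0.37), Bbc3 (-0.0076 to 0.20), Fas (-0.17 to 0.49), Sesn1 (-0.041 to 0.52), Sesn2 (-0.22 to 0.086), Perp (-0.10 to 0.57), Eda2r (-0.95 to 0.60), Polk (-0.0089 to 0.22) and Ddb2 (-0.046 to 0.17), and for no other target, in Btg2, Bbc3, Fas and Sesn1 without vector control tumor 1, in Sesn2 without tumor 2, in Perp, Eda2r and Polk without tumor 3, and in Perp and Ddb2 without ATM knockout tumor 1. No scaling, filter or tool changed a sign. With library size as the only scaling the median over all genes moved to 0.042 and the targets' median to 0.26. The causes of these changes were not tested, other than that each omission leaves 2 tumors in a group.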
